A study of Mus musculus with 9 samples.

Results

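Lefamulin, a pleuromutilin antibiotic used in people, was tested on Hepa1-6, an established mouse hepatoma cell line, by bulk RNA-seq. The comparison holds 3 libraries of cells given lefamulin at 37 μg/mL for 2 days and 3 libraries of control cells, which are 6 of the 9 libraries of the series, and every gene with enough counts was a member: 14510 of the 56748 genes in the count table. The other 3 libraries came from cells given tiamulin, a veterinary pleuromutilin, at the same concentration and time. All cells, controls included, grew in DMEM that held fetal bovine serum (10%) and the antibiotics penicillin and streptomycin (1%). The control cells are labelled as untreated, whereas the methods of the study name a vehicle control, so it is not certain that the controls received the solvent, and if they did not, its effect cannot be told apart from that of the drug. Hepa1-6 is a single transformed line, 1 concentration and 1 time were sampled, and nothing says that the 3 libraries of a group came from separate cultures, so each p-value measures only the spread between these libraries.

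The ribosome of bacteria is the target of the pleuromutilin antibiotics, and mitochondria carry ribosomes of bacterial descent that make a small set of respiratory chain proteins. Mammalian cells hold their sterol supply steady through the SREBP2 transcription factor, which raises the enzymes of cholesterol synthesis when sterol in the endoplasmic reticulum is low, and through the LXR receptors, which raise the efflux pumps Abca1 and Abcg1 when sterol is abundant. Stress that slows protein synthesis acts through the transcription factor ATF4, which raises amino acid synthesis and transport genes, tRNA synthetases and the transcription factor CHOP.

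The 6 libraries held between 15568887 and 18008105 reads assigned to genes. Within the groups, pairs of libraries differed by more than counting error, with chi-square values per degree of freedom between 2.88 and 7.57, so no library was a copy of another. Hepatoma markers were present: alpha-fetoprotein (Afp), albumin (Alb), the keratins Krt8 and Krt18 and the hepatocyte factor Hnf4a were among the 11 of 16 listed markers with enough counts, while Apoa1, Ahsg, Ttr, H19 and Igf2 stayed under 10 counts in every library. Of 22 blood cell markers 12 were at 0 in all 6 libraries, including the T cell genes Cd3d, Cd3e, Cd4 and Cd8a, and their summed counts were 230 to 244 in the controls and 246 to 336 under lefamulin. Most of that sum was Cd68, with 146, 153 and 138 counts and 211, 260 and 164 counts (0.65 ± 0.16, log2(fold change) ± SE). Among the 6 tested, Cd68 and the leukocyte gene Ptprc, with 0 to 5 counts in the controls and 12 to 15 under lefamulin, were raised at an edgeR adjusted p below 0.05, and Csf1r was lowered (-1.33 ± 0.31). Of 16 endothelial and fibroblast markers 7 were at 0 in all 6 libraries, and the sum of 26168 to 28597 counts in the controls and 18889 to 19158 under lefamulin came mostly from decorin (Dcn). Among the 5 of these that were tested, the endothelial genes Pecam1 (1.29 ± 0.29) and Vwf (1.56 ± 0.30) were raised at no more than 76 counts a library, and Dcn and Pdgfra were lowered. Without control replicate 3 none of the blood markers passed, without lefamulin replicate 2 none was raised, and 1 was raised without control replicate 1 or lefamulin replicate 1 or 3. The call of Pecam1 was lost without control replicate 1 or lefamulin replicate 1. In bulk libraries a change in the share of a kind of cell and a change in RNA per cell cannot be told apart, and the part of these markers in the results was not tested.

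Lefamulin changed many genes by small amounts and a few by large ones. By the quasi-likelihood test of edgeR with Benjamini-Hochberg adjustment over all 14510 genes, 1029 genes (7.09%) were raised and 871 (6.00%) were lowered at an adjusted p below 0.05. Their median absolute log2(fold change) was 0.417, and 1174 of these 1900 genes moved by less than 0.5. Differentially expressed genes (DEGs), which also had to pass an absolute log2(fold change) of 1, numbered 219: 142 raised (0.979% of the genes tested) and 77 lowered (0.531%). Of the DEGs 168 were protein coding and 105 had a mean below 2 normalized CPM, which are reads scaled to library size. The lefamulin libraries lay above all controls for 2741 genes (18.9%) and below all of them for 2722 (18.8%), and 217 of the 219 DEGs did not overlap between the groups. The shared spread of the fit rested on all 9 libraries. Without tiamulin replicate 2 the raised and lowered genes numbered 1823 and 1885. They fell to between 554 and 658 raised and between 425 and 514 lowered without control replicate 1, control replicate 3 or any single lefamulin library. Why these numbers moved was not tested. The lowered DEGs numbered 48 without control replicate 3.

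The genes with the largest changes are described in normalized CPM, that is, reads of the gene as a share of all assigned reads of the library after TMM scaling, which compare libraries for a gene and not genes with each other. They were chosen from DEGs whose groups did not overlap, so their separation is no finding. Members of the gene lists below were mostly named for small p-values, so their separation is no finding either. A value in parentheses after a gene is its log2(fold change) ± SE, with n = 3 per group, and raised or lowered means an adjusted p below 0.05. The SE is the absolute log2(fold change) divided by the square root of the F value of the quasi-likelihood test. Its spread was therefore estimated over all 9 libraries. Rhob, a small GTPase of endosomes and the actin cytoskeleton, had the smallest p-value of all genes, with 42.8, 41.96 and 41.7 CPM in the controls and 219, 228 and 225 CPM under lefamulin. The groups lay far apart, at 5.31 times the control level (log2(fold change) 2.41 ± 0.07; edgeR adjusted p = 2.40e-11). Klf2, a zinc finger transcription factor, was scarce in the controls at 3.06, 1.80 and 2.23 CPM and reached 25.6, 27.1 and 26.4 CPM under lefamulin, the largest rise among DEGs of at least 2 CPM (log2(fold change) 3.47 ± 0.18; edgeR adjusted p = 2.50e-08). Ptpn14, a protein tyrosine phosphatase, went from 11.6, 11.8 and 11.1 CPM to 36.7, 40.8 and 42.8 CPM (log2(fold change) 1.80 ± 0.09; edgeR adjusted p = 2.15e-08). Tsc22d3, the glucocorticoid-induced leucine zipper protein, had 12.9, 12.3 and 13.01 CPM in the controls and 40.3, 48.5 and 44.2 CPM under lefamulin (log2(fold change) 1.80 ± 0.09). All 3 treated libraries exceeded all 3 controls for each of these genes. Ezrin (Ezr), which links actin to the plasma membrane, rose from 239.7, 219 and 223 CPM to 543, 569 and 574 CPM (log2(fold change) 1.31 ± 0.08; edgeR adjusted p = 1.81e-07). Slc20a1, a phosphate transporter, rose from 38.97, 42.5 and 41.5 CPM to 83.8, 86.6 and 88.1 CPM.

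The other strongly raised DEGs of at least 2 CPM were mostly scarce. They were the transmembrane serine protease Tmprss11b (log2(fold change) 2.98 ± 0.31), the interferon-induced GTPase Mx1 (2.20 ± 0.14), the solute carrier Slc35f1 (2.16 ± 0.34), the mitochondrial intermembrane space protein Chchd10 (2.08 ± 0.23), Pbp2 (1.99 ± 0.29), Xkr9 (1.86 ± 0.19), the dehydrogenase Dhrs9 (1.83 ± 0.17), cyclooxygenase 1 (Ptgs1, 1.76 ± 0.20), Endod1 (1.73 ± 0.19) and Arhgef2, a guanine nucleotide exchange factor held on microtubules (1.73 ± 0.16). Tmprss11b had 0.751, 0.64 and 0.335 CPM in the controls and 4.09, 5.66 and 3.98 CPM under lefamulin, so its fold change rests on few reads. Slc35f1 was the most scattered, with 0.635, 2.04 and 0.782 CPM in the controls and 3.90, 5.24 and 6.31 CPM under lefamulin, and did not overlap. Its log2(fold change) ranged from 0.725 to 2.85 over the alternative fits.

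Among the lowered genes the cholesterol efflux pump Abca1 stood first, with 95.03, 83.7 and 92.2 CPM in the controls and 14.3, 9.88 and 10.97 CPM under lefamulin (log2(fold change) -2.95 ± 0.12; edgeR adjusted p = 3.55e-09). Wnt6, a secreted Wnt ligand, was at 53.98, 42.9 and 49.1 CPM in the controls and 17.2, 15.8 and 17.04 CPM under lefamulin (log2(fold change) -1.55 ± 0.12; edgeR adjusted p = 1.99e-06). Enpp2, which encodes autotaxin, the secreted enzyme that makes lysophosphatidic acid, had 70.6, 78.2 and 81.5 CPM in the controls against 32.01, 30.3 and 32.2 CPM (log2(fold change) -1.28 ± 0.08). These 3 genes were well counted and their groups were apart. The chemokine Cxcl10 fell from 37.1, 36.8 and 36.9 CPM to 18.2, 13.4 and 14.2 CPM (log2(fold change) -1.27 ± 0.11), and Rgs5, a regulator of G protein signalling, from 16.9, 19.6 and 17.4 CPM to 6.26, 5.24 and 4.78 CPM (-1.73 ± 0.23). Scarcer lowered genes were the myosin heavy chain Myh15 (-2.31 ± 0.36), the protease inhibitor Serpina10 (-1.94 ± 0.24), the glutathione transferase Gstm7 (-1.75 ± 0.26), ccdc198 (-1.68 ± 0.38), the phospholipid flippase Atp8a1 (-1.36 ± 0.17), the neuronal adhesion protein Lrrc4c (-1.35 ± 0.27), the addressin Madcam1 (-1.35 ± 0.29), the mitochondrial asparagine tRNA mt-Tn (-1.34 ± 0.22) and the sterol efflux pump Abcg1 (-1.33 ± 0.29). The call of ccdc198 was lost without control replicate 3 (adjusted p = 0.0600) or lefamulin replicate 3 (adjusted p = 0.0516). No other call among these 28 genes at an adjusted p below 0.05 was lost in the alternative fits that tested for any change. In glmTreat, which tests against a log2(fold change) of 1, 15 raised and 2 lowered genes were left of all DEGs.

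**Figure D1:**
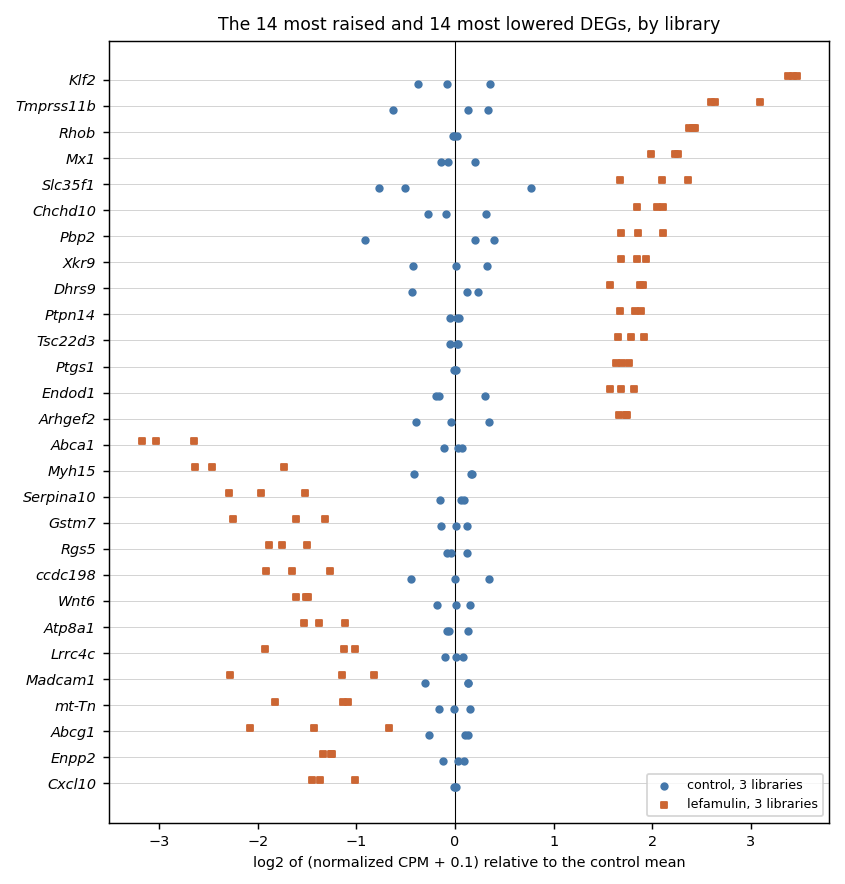
Level of the 14 most raised and 14 most lowered DEGs of at least 2 CPM in each control library (circles) and lefamulin library (squares), as log2 of (normalized CPM + 0.1) minus the same for the mean of the controls. The groups are apart for every gene, since the genes were chosen for that, Klf2 lies furthest to the right and Abca1 furthest to the left, and scarce genes such as Slc35f1 and Abcg1 scatter more than Rhob and Enpp2.

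The promoters of the 3 raised and 3 lowered of these genes with the smallest p-values are shown where the reference table held them, from 250 bases before to 50 bases after the start of the gene (RefSeq, GRCm38.p6, printed 5′ to 3′ on the strand of the gene), since these are the genes at which the groups differed most relative to their spread. Capitals mark matches to 6 motifs, searched on both strands: the CCAAT box, the sterol response motif TCACNCCAC, the C/EBP-ATF motif TGATGNAA, the CLEAR motif TCACGTGA, the antioxidant response motif TGACNNNGC and the interferon response motif GAAANNGAA. Rhob lies at chr12:8499960-8500259 on the minus strand, Ptpn14 at chr1:189728018-189728317 and Klf2 at chr8:72318812-72319111 on the plus strand, Abca1 at chr4:53159846-53160145 on the minus strand and Wnt6 at chr1:74771642-74771941 on the plus strand.
Rhob: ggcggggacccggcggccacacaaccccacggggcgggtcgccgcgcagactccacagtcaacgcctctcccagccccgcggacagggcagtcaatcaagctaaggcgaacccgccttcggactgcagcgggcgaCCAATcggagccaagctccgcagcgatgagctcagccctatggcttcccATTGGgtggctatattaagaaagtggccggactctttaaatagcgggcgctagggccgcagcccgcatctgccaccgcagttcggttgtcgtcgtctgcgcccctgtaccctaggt
Ptpn14: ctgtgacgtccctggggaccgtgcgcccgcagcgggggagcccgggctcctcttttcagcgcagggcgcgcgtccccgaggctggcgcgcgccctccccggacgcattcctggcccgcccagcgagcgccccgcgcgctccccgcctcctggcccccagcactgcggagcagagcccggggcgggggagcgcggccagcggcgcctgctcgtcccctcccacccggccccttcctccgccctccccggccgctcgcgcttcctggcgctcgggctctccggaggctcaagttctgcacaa
Klf2: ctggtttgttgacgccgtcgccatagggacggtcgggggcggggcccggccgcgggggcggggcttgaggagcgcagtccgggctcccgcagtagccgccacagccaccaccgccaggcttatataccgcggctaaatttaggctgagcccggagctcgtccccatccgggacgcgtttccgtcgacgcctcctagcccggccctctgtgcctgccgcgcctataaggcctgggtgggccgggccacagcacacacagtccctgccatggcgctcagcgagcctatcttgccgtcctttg
Abca1: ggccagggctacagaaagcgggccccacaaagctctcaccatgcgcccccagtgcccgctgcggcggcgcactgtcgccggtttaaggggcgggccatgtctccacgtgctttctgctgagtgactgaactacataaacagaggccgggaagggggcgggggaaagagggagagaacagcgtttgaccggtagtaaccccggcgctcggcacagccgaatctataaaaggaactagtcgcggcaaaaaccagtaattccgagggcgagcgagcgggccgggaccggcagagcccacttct
Wnt6: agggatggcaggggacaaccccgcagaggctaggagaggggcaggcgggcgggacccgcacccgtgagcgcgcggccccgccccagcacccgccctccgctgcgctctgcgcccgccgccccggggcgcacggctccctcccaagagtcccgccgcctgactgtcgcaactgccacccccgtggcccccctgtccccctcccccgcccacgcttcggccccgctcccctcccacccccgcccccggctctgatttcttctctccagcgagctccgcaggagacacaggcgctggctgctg
The promoter of Rhob held a pair of CCAAT boxes in opposite orientations, a motif found in 12289 of all 32851 promoters in the table (37.4%). None of the 6 motifs was found in the window of Ptpn14, Klf2, Abca1 or Wnt6, which says only that these letters are absent there. Among DEGs with a promoter in the table the CCAAT box stood in 32 of 96 raised (33.3%) and 10 of 33 lowered (30.3%).

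The enzymes of cholesterol synthesis rose almost without exception. Of 20 enzymes from acetoacetyl-CoA thiolase to cholesterol, all 20 were tested, 19 were raised and none was lowered, beside 7.09% of all genes raised. All 20 had their lefamulin libraries above all controls, against 18.9% of all genes, and the median log2(fold change) of the list was 0.507 against -0.00183 over all genes. The number raised lay between 17 and 20 under the alternatives that gave counts for lists.

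In the early, mevalonate part of the pathway, Mvd, which makes isopentenyl diphosphate, went from 22.3, 19.2 and 20.7 CPM to 43.8, 40.7 and 44.4 CPM (log2(fold change) 1.05 ± 0.11; edgeR adjusted p = 2.07e-05), the only DEG of the list. Acat2, the thiolase that opens the pathway, had 33.2, 32.9 and 33.6 CPM in the controls and 60.96, 55.8 and 60.2 CPM under lefamulin (log2(fold change) 0.83 ± 0.07). Fdps, which makes farnesyl diphosphate, had 9.18, 8.73 and 9.72 CPM and 20.2, 18.7 and 15.8 CPM, respectively (0.98 ± 0.12). Hmgcs1, the synthase of the early pathway, showed 0.45 ± 0.07 on the same scale (edgeR adjusted p = 5.22e-04). The gap between the groups exceeded the spread within them for all of these enzymes.

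In the late, sterol part, Lss, the lanosterol synthase that closes the sterol rings, had 107, 98.4 and 108 CPM in the controls and 185, 179 and 189 CPM under lefamulin (log2(fold change) 0.82 ± 0.07; edgeR adjusted p = 4.40e-06), the smallest p-value of the list. Hsd17b7, a ketoreductase of the demethylation steps, had 52.4, 54.2 and 60.9 CPM and 91.9, 94.2 and 91.7 CPM (0.73 ± 0.07), and Dhcr7, which reduces dehydrocholesterol to cholesterol, 69.4, 72.6 and 65.1 CPM and 107, 112 and 115 CPM (0.69 ± 0.07). The squalene epoxidase Sqle rose less, by 0.36, as did Cyp51, the lanosterol demethylase, by 0.44.

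**Figure D2:**
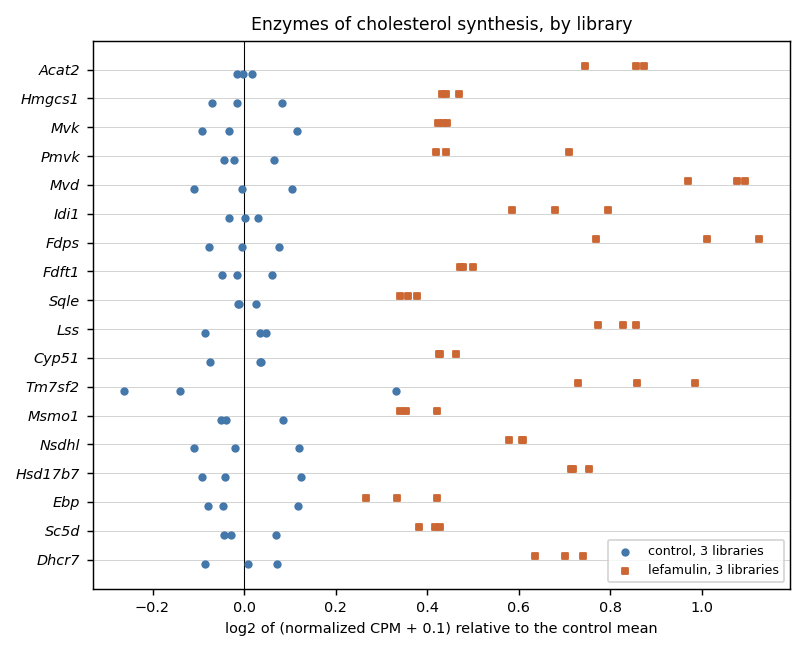
Level of 18 cholesterol synthesis enzymes, listed in pathway order from Acat2, in each library, as log2 of (normalized CPM + 0.1) minus the same for the mean of the controls. Every lefamulin library (square) lies to the right of every control (circle) for every enzyme shown, with a wide gap at Mvd and a narrow one at Ebp.

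The promoters of the 3 enzymes with the smallest p-values are shown because members of this list moved together. Lss lies at chr10:76531355-76531654 on the plus strand, Acat2 at chr17:12960676-12960975 and Hsd17b7 at chr1:169969156-169969455 on the minus strand, with motif matches in capitals as above.
Lss: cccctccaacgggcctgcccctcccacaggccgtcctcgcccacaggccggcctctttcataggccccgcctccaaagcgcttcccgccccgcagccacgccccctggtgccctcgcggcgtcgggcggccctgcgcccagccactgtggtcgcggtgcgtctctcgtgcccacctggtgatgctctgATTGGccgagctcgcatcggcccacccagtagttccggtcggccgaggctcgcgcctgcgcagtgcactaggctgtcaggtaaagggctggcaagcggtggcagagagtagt
Acat2: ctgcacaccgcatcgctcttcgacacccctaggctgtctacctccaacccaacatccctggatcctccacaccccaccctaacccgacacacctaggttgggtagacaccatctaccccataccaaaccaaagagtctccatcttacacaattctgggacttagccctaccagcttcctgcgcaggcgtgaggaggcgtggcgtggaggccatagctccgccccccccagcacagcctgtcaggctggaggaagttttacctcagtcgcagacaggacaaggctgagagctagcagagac
Hsd17b7: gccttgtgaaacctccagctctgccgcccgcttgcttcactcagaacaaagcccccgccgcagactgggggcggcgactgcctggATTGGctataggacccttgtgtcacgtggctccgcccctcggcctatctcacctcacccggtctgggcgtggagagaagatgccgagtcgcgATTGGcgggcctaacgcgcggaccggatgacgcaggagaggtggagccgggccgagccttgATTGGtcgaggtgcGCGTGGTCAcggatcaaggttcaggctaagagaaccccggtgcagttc
CCAAT boxes stood in Lss once and in Hsd17b7 at 3 places, where the antioxidant response letters also matched once, and none of the 6 motifs matched in Acat2. Over the list, 13 of the 15 enzymes with a promoter in the table held a CCAAT box (86.7%, against 37.4% of all promoters and 39.3% of those of tested genes) and 1 of 15 held the sterol response letters (6.67%, against 1.24% and 1.11%). These matches are descriptions of the sequence and no binding was measured.

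Of 14 regulators of sterol supply, 6 were raised and none was lowered, beside 7.09% and 6.00% of all genes. Insig1, which holds the SREBP complex in the endoplasmic reticulum and is itself an SREBP target, had 57.4, 57.2 and 57.3 CPM in the controls and 96.7, 95.9 and 89.7 CPM under lefamulin (log2(fold change) 0.72 ± 0.07; edgeR adjusted p = 8.03e-06). The lysosomal sterol carrier Npc2 (0.41 ± 0.07), the sterol esterifying enzyme Soat2 (1.15 ± 0.20) and the sterol transport protein Stard4 (0.38 ± 0.07) also rose. Among 10 tested LXR targets and receptors, apart from Abca1, 1 was raised and 1 lowered (10% each), near the shares of all genes. The median log2(fold change) of this list was 0.000751. Abcg1 was the lowered member, and lipoprotein lipase (Lpl, 0.31 ± 0.07) was raised, though not without lefamulin replicate 3. Apoe had a log2(fold change) of -0.21 ± 0.08 that did not pass (edgeR adjusted p = 0.0958). The receptors Nr1h2 and Nr1h3 overlapped between the groups.

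Fatty acid synthesis split. Of 17 tested genes 6 were raised and 2 lowered, and of all genes 7.09% were raised and 6.00% lowered. Acss2, which makes acetyl-CoA from acetate, went from 8.31, 7.92 and 10.1 CPM to 21.5, 19.4 and 23.1 CPM (log2(fold change) 1.28 ± 0.12; edgeR adjusted p = 6.93e-06), and the desaturase Scd1 from 447, 456 and 469 CPM to 667, 663 and 668 CPM (0.54 ± 0.05). The related desaturase Scd2 was lowered instead, from 2295, 2262 and 2355 CPM to 1958, 1931 and 1985 CPM (-0.24 ± 0.05). Srebf1, which encodes the factor SREBP1 that drives this pathway, was at 194, 153 and 178 CPM in the controls and 122, 118 and 117 CPM under lefamulin (-0.56 ± 0.13). Of 24 tested genes of fatty acid oxidation 4 were raised, among them the thioesterase Acot2 (1.05 ± 0.15), and 3 were lowered, among them the short-chain dehydrogenase Acads (-0.33 ± 0.08). None was lowered without control replicate 1 or 3 or lefamulin replicate 2 or 3, 1 without tiamulin replicate 1 and 6 without tiamulin replicate 2.

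Genes of ATF4 and CHOP signalling had a median log2(fold change) of 0.618, the highest of the 35 lists plotted by median. Of 17 tested, 12 were raised and none was lowered, and 16 had all lefamulin libraries above all controls, beside 7.09% and 18.9% of all genes. Ddit3, which encodes CHOP, had 33.2, 31.02 and 31.8 CPM in the controls and 82.04, 84.9 and 85.1 CPM under lefamulin, 2.63 times the control level (log2(fold change) 1.39 ± 0.07; edgeR adjusted p = 2.50e-08). Cth, which makes cysteine by transsulfuration, went from 23.4, 25.3 and 22.6 CPM to 62.6, 59.5 and 57.9 CPM (1.34 ± 0.07; edgeR adjusted p = 4.15e-08). The stress factor Atf3 was at 41.1, 35.97 and 34.3 CPM and 84.9, 87.1 and 91.3 CPM (1.24 ± 0.08). The groups did not overlap for any of these 3 genes. Chac1, which degrades glutathione (1.34 ± 0.09), and the pseudokinase Trib3 (1.16 ± 0.11) passed the DEG thresholds as well. Atf4 itself, which is controlled chiefly at translation, moved little, from 451, 439 and 427 CPM to 545, 528 and 526 CPM (log2(fold change) 0.28 ± 0.06; edgeR adjusted p = 0.00801), a call lost without control replicate 3, and Cebpb, a partner of these factors, overlapped between the groups (-0.22 ± 0.29). The motif TGATGNAA stood in the promoter windows of 4 of 15 genes of this list (26.7%), against 3.97% of all promoters and 2.23% of those of tested genes.

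**Figure D3:**
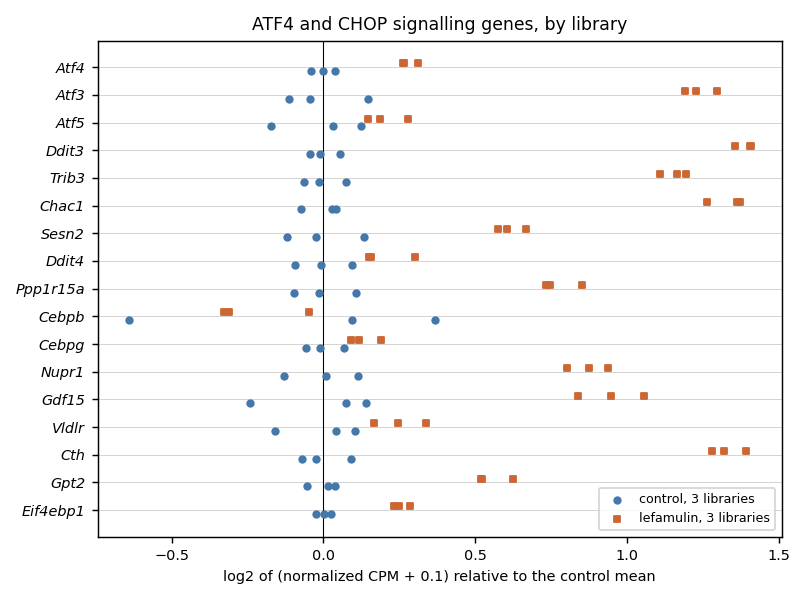
Level of 17 ATF4 and CHOP signalling genes in each library, as log2 of (normalized CPM + 0.1) minus the same for the mean of the controls. Ddit3, Cth, Chac1, Atf3 and Trib3 lie more than 1 unit above the control mean, Atf4 lies closer to the controls, and the controls of Cebpb span its lefamulin libraries.

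Part of the amino acid genes also rose. Of all genes 7.09% were raised and 6.00% lowered. Of 15 synthesis genes 8 were raised, led by Psph, the last enzyme of serine synthesis, with 43.8, 46.4 and 45.7 CPM in the controls and 90.2, 91.4 and 87.5 CPM under lefamulin (log2(fold change) 0.99 ± 0.06; edgeR adjusted p = 1.81e-07). Asparagine synthetase (Asns, 0.44 ± 0.05), the mitochondrial folate enzyme Mthfd2 (0.48 ± 0.06) and the alanine aminotransferase Gpt2 (0.56 ± 0.07) followed, while the cytosolic folate enzyme Mthfd1 was lowered (-0.30 ± 0.08), a call lost without control replicate 1 or 2 or lefamulin replicate 2 or 3. Of 17 transporters 8 were raised and 1 lowered. Slc3a2, the shared heavy chain of several exchangers, rose from 229, 216 and 202 CPM to 353, 351 and 354 CPM (0.71 ± 0.06), and the cystine exchanger Slc7a11 (0.52 ± 0.07), the arginine transporter Slc7a1 (0.40 ± 0.05) and the glycine transporter Slc6a9 (0.68 ± 0.09) rose too. The lowered transporter was Slc7a2, also an arginine carrier, at 109, 110.4 and 102 CPM in the controls and 72.9, 64.04 and 63.7 CPM under lefamulin (-0.68 ± 0.10). The number of raised transporters was 5 without control replicate 1 or 3 or lefamulin replicate 2 or 3. Of 20 cytosolic tRNA synthetases 11 were raised and none was lowered. Nars, Tars, Rars and Sars, which charge asparagine, threonine, arginine and serine tRNAs, had log2(fold changes) of 0.39 ± 0.05, 0.31 ± 0.05, 0.31 ± 0.05 and 0.37 ± 0.07.

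Chaperones were counted by compartment. Of 27 genes for chaperones and the unfolded protein response of the endoplasmic reticulum 10 were raised and none was lowered, beside 7.09% and 6.00% of all genes. Hspa5, the main chaperone there, went from 923, 959 and 902 CPM to 1448, 1485 and 1486 CPM (log2(fold change) 0.67 ± 0.05; edgeR adjusted p = 6.42e-07). Sdf2l1, its partner (0.67 ± 0.11), Herpud1, of protein disposal (0.42 ± 0.09), and the chaperone Hsp90b1 (0.29 ± 0.06) rose as well. The number raised was 3 without control replicate 1, 6 without control replicate 3 or lefamulin replicate 1 or 2, and 13 without tiamulin replicate 2. Of 17 tested cytosolic heat shock genes none was raised and 2 were lowered, the constitutive chaperones Hspa8 (-0.30 ± 0.04) and Hsp90ab1 (-0.27 ± 0.05). Without tiamulin replicate 2, 3 were raised and 5 lowered, and with both groups fitted alone 2 and 5. Of 19 mitochondrial chaperones and proteases none was raised and Trap1 was lowered (-0.20 ± 0.06). The call of Trap1 was lost in 8 of 19 alternative fits, among them every fit without a control or lefamulin library, whereas 3 members were raised and 5 lowered without tiamulin replicate 2 and with both groups alone.

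The transcripts of the mitochondrial genome changed unevenly. The large ribosomal RNA mt-Rnr2 had 790.5, 815 and 757 CPM in the controls and 335, 358 and 378 CPM under lefamulin (log2(fold change) -1.14 ± 0.10; edgeR adjusted p = 8.04e-06), and the small ribosomal RNA mt-Rnr1 had 208, 223 and 203 CPM and 133, 136 and 128 CPM (-0.68 ± 0.10; edgeR adjusted p = 4.68e-04). Both were lower in every treated library. How the RNA was selected for sequencing is not given in the sources used here, and ribosomal RNA levels depend on it. Of the 13 mRNAs, mt-Co1, a catalytic subunit of cytochrome c oxidase, fell from 11676, 13031 and 12624 CPM to 7226, 7207 and 6936 CPM (log2(fold change) -0.80 ± 0.09; edgeR adjusted p = 8.92e-05). In the opposite direction, the complex I subunits mt-Nd2 and mt-Nd3 rose: mt-Nd2 had 2122, 2554 and 2299 CPM in the controls and 4719, 4533 and 4292 CPM under lefamulin (0.96 ± 0.14; edgeR adjusted p = 0.0019), and mt-Nd3 showed 0.82 ± 0.19. The other 10 did not pass: mt-Nd1, mt-Nd4 and mt-Nd5 lay above all controls by 0.25, 0.33 and 0.19, mt-Co2 lay below all of them with 83.4, 44.5 and 80.2 CPM and 40.4, 43.9 and 33.5 CPM (edgeR adjusted p = 0.485), and mt-Cytb and mt-Nd6 differed by -0.01 and 0.02. The values of mt-Co2 in the controls and of mt-Atp6, mt-Atp8, mt-Co3 and mt-Nd4l were scattered within the groups, as in mt-Nd4l with 4.16, 4.66 and 29.7 CPM in the controls. Nuclear copies of mitochondrial sequence can share reads with any of the 13 mRNAs, which was not tested. The call of mt-Nd3 was lost without lefamulin replicate 1, and without tiamulin replicate 2, 5 of the 13 mRNAs were raised and 1 lowered. Of all genes 7.09% were raised and 6.00% lowered, and the 1 of 13 lowered (7.69%) is near that share.

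**Figure D4:**
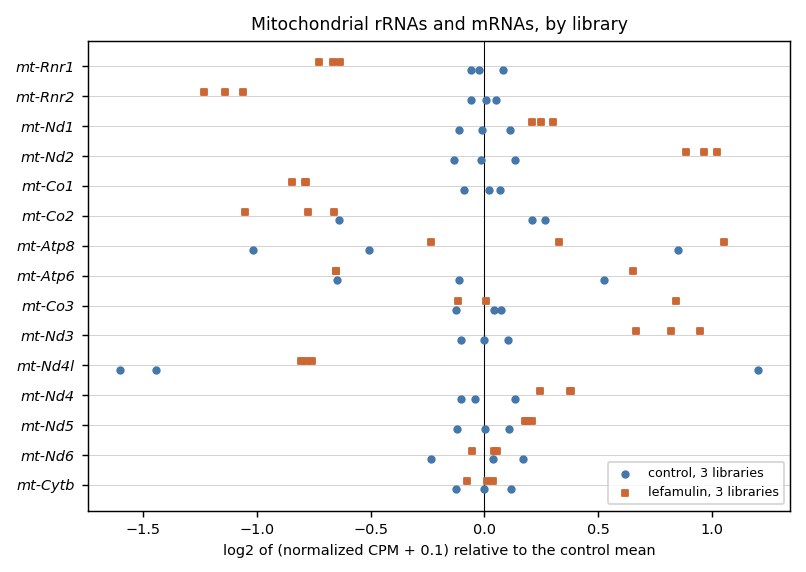
Level of the 2 ribosomal RNAs and 13 mRNAs of the mitochondrial genome in each library, as log2 of (normalized CPM + 0.1) minus the same for the mean of the controls. The lefamulin libraries (squares) of mt-Rnr1, mt-Rnr2 and mt-Co1 lie left of the controls, those of mt-Nd2 and mt-Nd3 right of them, and mt-Cytb and mt-Nd6 overlap.

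Nuclear genes for mitochondrial proteins moved little. Of all genes 7.09% were raised and 6.00% lowered. Of 77 tested proteins of the mitochondrial ribosome 3 were raised and none was lowered, with a median log2(fold change) of 0.014, and of 17 mitochondrial translation factors only Slirp, an RNA-binding protein, was raised (0.69 ± 0.21). The call of Slirp was lost in 10 of 19 alternative fits, among them those without control replicate 1 or 3 or any lefamulin library, and 4 other factors were lowered without tiamulin replicate 2. Raised genes of the mitochondrial ribosome numbered 0 without control replicate 1 or lefamulin replicate 1 or 2 and with the replicate block, 1 without control replicate 3 or lefamulin replicate 3, and 7, beside 3 lowered, without tiamulin replicate 2. Of 79 tested nuclear genes of oxidative phosphorylation 3 were raised and 5 lowered, a share near that of all genes, with a median of -0.0187. They included the raised complex III subunit Uqcrq (0.41 ± 0.08) and the lowered ATP synthase subunit Atp5a1 (-0.23 ± 0.05), succinate dehydrogenase subunit Sdha (-0.23 ± 0.05) and complex I subunit Ndufs1 (-0.22 ± 0.05). The number lowered was between 0 and 3 without any single control or lefamulin library and 13 without tiamulin replicate 2. The number raised was 1 without control replicate 2 or 3 or any lefamulin library and 6 without tiamulin replicate 2. Of 78 cytosolic ribosomal proteins 3 were raised and none was lowered, and the number raised ranged from 0 to 18 over the alternatives, with 0 or 1 without any single control or lefamulin library and 18 without tiamulin replicate 2.

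Many lysosomal genes rose by less than 1 on the log2 scale. Of 47 tested genes for lysosomal enzymes and membrane proteins 17 were raised, none was lowered and 30 had all lefamulin libraries above all controls, beside 7.09% raised and 18.9% above all controls among all genes, with a median log2(fold change) of 0.219. The protease cathepsin L (Ctsl) went from 1252, 1250.1 and 1232 CPM to 1568, 1551 and 1594 CPM (log2(fold change) 0.34 ± 0.04; edgeR adjusted p = 1.48e-04). The hexosaminidase subunit Hexa (0.47 ± 0.07) and the membrane protein Scarb2 (0.62 ± 0.09) rose too. Of 18 tested subunits of the V-ATPase, the proton pump that acidifies lysosomes, 12 were raised and none was lowered, led by the catalytic subunit Atp6v1a at 164, 177 and 168 CPM in the controls and 235, 242 and 252 CPM under lefamulin (0.52 ± 0.07). Atp6v0b (0.39 ± 0.06), Atp6v1h (0.27 ± 0.05) and Atp6ap2 (0.40 ± 0.08) followed. Raised lysosomal genes numbered 8 without control replicate 3, 9 or 10 without control replicate 2 or any single lefamulin library, and 26, with 3 lowered, without tiamulin replicate 2. Lysosomal genes lowered numbered 1 without lefamulin replicate 3, 2 with both groups alone and 3 with the GC and length offsets. Raised V-ATPase genes numbered 6 without control replicate 1 or 3, 7 without lefamulin replicate 1 or 2, and 15 without tiamulin replicate 2.

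Of 32 tested autophagy genes 8 were raised (25%, beside 7.09% of all genes) and 3 lowered (9.38%, beside 6.00%), with a median of 0.013. The cargo receptors Nbr1 (0.26 ± 0.05) and Sqstm1 (0.26 ± 0.06) and the Beclin partner Uvrag (0.36 ± 0.07) rose, and the conjugation enzyme Atg3 fell from 131, 147 and 137 CPM to 96.4, 94.05 and 97.9 CPM (-0.52 ± 0.09). Tfeb, the factor that drives lysosomal genes, was lowered, with 20.3, 16.3 and 17.3 CPM in the controls and 11.4, 9.34 and 13.97 CPM under lefamulin (log2(fold change) -0.64 ± 0.17; edgeR adjusted p = 0.0268). The CLEAR letters that TFEB binds stood in 3 of 13 V-ATPase promoter windows (23.1%) and 3 of 35 lysosomal ones (8.57%), against 0.974% of all promoters and 1.96% of those of tested genes. The call of Tfeb was lost in 7 of 19 alternative fits, among them those without control replicate 1 or 3 or lefamulin replicate 1 or 2. In these 4 fits 4 or 5 autophagy genes were raised and 1 was lowered, and 6 were lowered without tiamulin replicate 2. The call of Sqstm1 was lost without control replicate 2 or 3 or lefamulin replicate 1 or 2.

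Krüppel-like factors, zinc finger regulators of growth and differentiation, were raised or did not pass. Of 12 tested 7 were raised and none was lowered, beside 7.09% and 6.00% of all genes, and 3 were raised DEGs, beside 0.979%. Beside Klf2, Klf4 went from 39.1, 31.8 and 33.3 CPM to 90.4, 90.1 and 92.5 CPM (log2(fold change) 1.39 ± 0.11; edgeR adjusted p = 1.60e-06), Klf7 from 30.3, 30.1 and 32.4 CPM to 67.2, 67.8 and 65.8 CPM (1.11 ± 0.07) and Klf9 from 66.9, 67.2 and 66.6 CPM to 104, 105 and 102 CPM (0.63 ± 0.06). The groups were apart for each. Of 32 tested immediate early and MAPK feedback genes 7 were raised and 2 lowered. The phosphatase Dusp1 rose from 46.4, 46.3 and 44.6 CPM to 87.9, 104 and 107 CPM (1.12 ± 0.08; edgeR adjusted p = 7.28e-07), and the orphan receptor Nr4a1 (0.94 ± 0.11), the matricellular protein Ccn2 (0.52 ± 0.06) and the AP-1 subunit Jun (0.87 ± 0.14) rose too, whereas its relative Junb fell (-0.55 ± 0.15; edgeR adjusted p = 0.0297). The call of Junb was lost in 9 of 19 alternative fits, with adjusted p up to 0.165. Without control replicate 1 or 3 or any lefamulin library 1 gene of this list was lowered, and without tiamulin replicate 2 there were 5.

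Immune genes showed no common direction. Of 47 tested interferon-induced genes and interferon regulatory factors 6 were raised (12.8%, beside 7.09% of all genes) and 8 lowered (17.0%, beside 6.00%). Mx1 rose from 2.83, 3.43 and 2.68 CPM to 12.1, 14.3 and 14.7 CPM (log2(fold change) 2.20 ± 0.14; edgeR adjusted p = 2.69e-07), and the tethering protein Bst2 (0.48 ± 0.10) also rose. The regulatory factors Irf8, with 41.4, 42.1 and 43.8 CPM in the controls and 26.96, 25.1 and 24.4 CPM under lefamulin (-0.74 ± 0.08), Irf1 (-0.69 ± 0.09) and Irf5 (-0.71 ± 0.15) were lowered, as was the GTPase Ifi47 (-0.61 ± 0.11). Between 3 and 7 members were raised when 1 library was left out, with 3 without control replicate 2 or 3 or any lefamulin library. The interferon response letters stood in 18 of 33 promoter windows of this list (54.5%), against 8.56% of all promoters and 7.06% of those of tested genes.

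Of 21 tested chemokines, cytokines and immune ligands 5 were raised and 5 lowered, beside 7.09% and 6.00% of all genes. Cxcl10, Cx3cl1 (-0.86 ± 0.15) and the macrophage growth factor Csf1 (-0.50 ± 0.09) were lowered, while Cxcl2 (0.99 ± 0.16), the poliovirus receptor Pvr (0.44 ± 0.05) and Cxcl16 (0.35 ± 0.06) were raised. Of 25 tested antigen presentation genes 2 were raised, a share near that of all genes, and 5 lowered, among them the peptide trimming enzyme Erap1 from 54.9, 60.9 and 58.6 CPM to 40.7, 40.7 and 42.5 CPM (-0.49 ± 0.07). Both raised members were DEGs (8%, beside 0.979% of all genes), and none of the lowered ones was. The class I gene H2-Q1 was lowered (-0.89 ± 0.19) and H2-Bl raised (1.04 ± 0.16), and reads of class I genes can be shared between near-identical copies. The number lowered was 3 without control replicate 1 or 3 or lefamulin replicate 2 or 3. The number raised was 1 without control replicate 3 or lefamulin replicate 1 or 2 and 4 without tiamulin replicate 2.

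More liver genes were lowered than raised. Of 55 listed plasma protein genes 22 had enough counts in this line, of which 1 was raised and 6 were lowered, beside 7.09% and 6.00% of all genes, with a median log2(fold change) of -0.21. Complement C3 had 283, 259 and 296 CPM in the controls and 161, 136 and 153 CPM under lefamulin (-0.90 ± 0.09; edgeR adjusted p = 1.42e-05), complement factor I (Cfi) 16.3, 16.00 and 17.8 CPM and 8.31, 8.31 and 6.99 CPM (-1.09 ± 0.12), and the inter-alpha-trypsin inhibitor chain Itih2 401, 405 and 436 CPM and 281, 258 and 269 CPM (-0.62 ± 0.06). Every lefamulin library lay below every control for these 3 genes. Albumin (Alb) was lowered slightly (-0.24 ± 0.06), and transferrin (Trf) was the raised member (0.27 ± 0.05). Of 21 tested liver transcription factors 1 was raised and 6 were lowered, with a median of -0.248, the lowest of the 35 lists plotted by median. Onecut1 went from 15.5, 14.8 and 15.3 CPM to 8.18, 8.07 and 7.60 CPM (-0.94 ± 0.11; edgeR adjusted p = 8.23e-05), and Nr5a2 (-0.57 ± 0.07), Cebpa (-0.70 ± 0.12), Tbx3 (-0.44 ± 0.08) and Hnf4a (-0.21 ± 0.06) were also lowered, while the clock-controlled factor Tef was raised (0.35 ± 0.09). Without tiamulin replicate 2, 11 members of each list were lowered. Lowered plasma protein genes numbered 3 without control replicate 3 or lefamulin replicate 2 or 3, and the call of Alb was lost in these fits. The call of Hnf4a was lost in 9 of 19 alternative fits, among them every fit without a control or lefamulin library, and that of Tef without control replicate 1 or 3 or lefamulin replicate 1 or 3.

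More antioxidant genes were raised than lowered. Of 42 tested glutathione and NRF2 genes 14 were raised (33.3%, beside 7.09% of all genes) and 2 lowered, a share near the 6.00% of all genes. The ferritin heavy chain Fth1 went from 609, 633 and 610.5 CPM to 940.2, 903 and 909.9 CPM (log2(fold change) 0.57 ± 0.05; edgeR adjusted p = 3.97e-06), the haem oxygenase Hmox1 from 72.6, 68.5 and 64.8 CPM to 123.2, 131 and 128 CPM (0.89 ± 0.08) and the epoxide hydrolase Ephx1 from 39.8, 41.3 and 43.3 CPM to 70.4, 66.03 and 63.2 CPM (0.68 ± 0.08). Every lefamulin library lay above every control for these 3 genes. Gstm7 and the peroxiredoxin Prdx6 (-0.22 ± 0.05) were the lowered members. The number raised was 8 without lefamulin replicate 3 and 9 without control replicate 3. The call of Prdx6 was lost in both fits and without lefamulin replicate 2, and without tiamulin replicate 2, 6 members were lowered. Only 20 of 120 listed drug metabolism genes had enough counts, of which 3 were raised, or 5 without tiamulin replicate 2, and 1 was lowered. Cyp1a1, the aryl hydrocarbon receptor target, was at 34.1, 34.2 and 39.2 CPM in the controls and 74.1, 74.1 and 74.2 CPM under lefamulin (1.05 ± 0.09), Cyp3a13 showed 0.98 ± 0.10, and Cyp2s1 was the lowered member (-0.60 ± 0.09).

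Part of the glycolysis and matrix genes were lowered. Of 33 tested genes of glycolysis and the hypoxia response 10 were lowered, beside 6.00% of all genes, and 2 raised (6.06%), a share near the 7.09% of all genes. The phosphofructokinase Pfkl went from 245, 220.3 and 241 CPM to 142, 144 and 138 CPM (log2(fold change) -0.74 ± 0.07; edgeR adjusted p = 1.59e-05). The triosephosphate isomerase Tpi1 (-0.35 ± 0.05), the kinase Pdk1, which restrains pyruvate entry into mitochondria (-0.42 ± 0.07), and lactate dehydrogenase Ldha (-0.27 ± 0.05) were lower too, and the stress-responsive Ndrg1 was raised (0.60 ± 0.05). The number raised was 4 without tiamulin replicate 2 and 1 without any other single library. Of 47 tested genes of the extracellular matrix 14 were lowered and 4 raised (8.51%), the latter also near the share of all genes. Fibronectin (Fn1) had 5246, 4869 and 5110.2 CPM in the controls and 3906, 3781 and 3844 CPM under lefamulin (-0.40 ± 0.07), the basement membrane protein Nid1 228, 219 and 222 CPM and 148, 148 and 154 CPM (-0.57 ± 0.05), and Col27a1 48.4, 38.6 and 41.1 CPM and 22.1, 19.8 and 19.8 CPM (-1.05 ± 0.12). The groups were apart for all 3. Col8a1 (-0.48 ± 0.06) and decorin (Dcn, -0.42 ± 0.05) were lowered as well.

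A few cell cycle genes were lowered slightly. Of 46 S phase genes 10 were lowered (21.7%, beside 6.00% of all genes) and 1 raised (beside 7.09%), with none past a log2(fold change) of 1. The methylation maintenance factor Uhrf1 (-0.36 ± 0.07), cyclin D1 (Ccnd1, -0.23 ± 0.05) and the replicative helicase subunits Mcm5 (-0.33 ± 0.07) and Mcm7 (-0.22 ± 0.05) were among them. The number lowered was between 2 and 5 without any single control or lefamulin library and 16 without tiamulin replicate 2. Without control replicate 1 or 3 or lefamulin replicate 2 or 3 none was raised. Of 39 tested mitotic genes 4 (10.3%) were lowered, beside 6.00% of all genes, led by the spindle protein Aspm (-0.33 ± 0.07), and the number ranged from 1 to 15 over the alternatives, with 1 or 2 without any single control library or lefamulin replicate 1 or 2 and 14 without tiamulin replicate 2. None of 10 tested histone genes passed by edgeR or DESeq2, 1 was raised in edgeR with offsets for GC content and length, and 1, H3c15, had an unadjusted edgeR p below 0.05. Of 28 tested p53 targets 8 were raised (28.6%, beside 7.09% of all genes) and 2 lowered, a share near that of all genes: Gadd45a, of growth arrest, went from 11.5, 12.5 and 11.6 CPM to 23.3, 24.3 and 20.3 CPM (0.93 ± 0.11) and the kinases Plk2 (0.47 ± 0.06) and Plk3 (0.71 ± 0.12) rose, while Trp53 itself fell (-0.25 ± 0.07). Cdkn1a, the best known target, had a log2(fold change) of 0.13 ± 0.07 (edgeR adjusted p = 0.229). The number raised was 4 without control replicate 1 or lefamulin replicate 3 and 5 without control replicate 3 or lefamulin replicate 2. The call of Trp53 was lost in 8 of 19 alternative fits, and lowered members numbered 1 without control replicate 1 or 3 or any lefamulin library and 5 without tiamulin replicate 2.

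**Figure D5:**
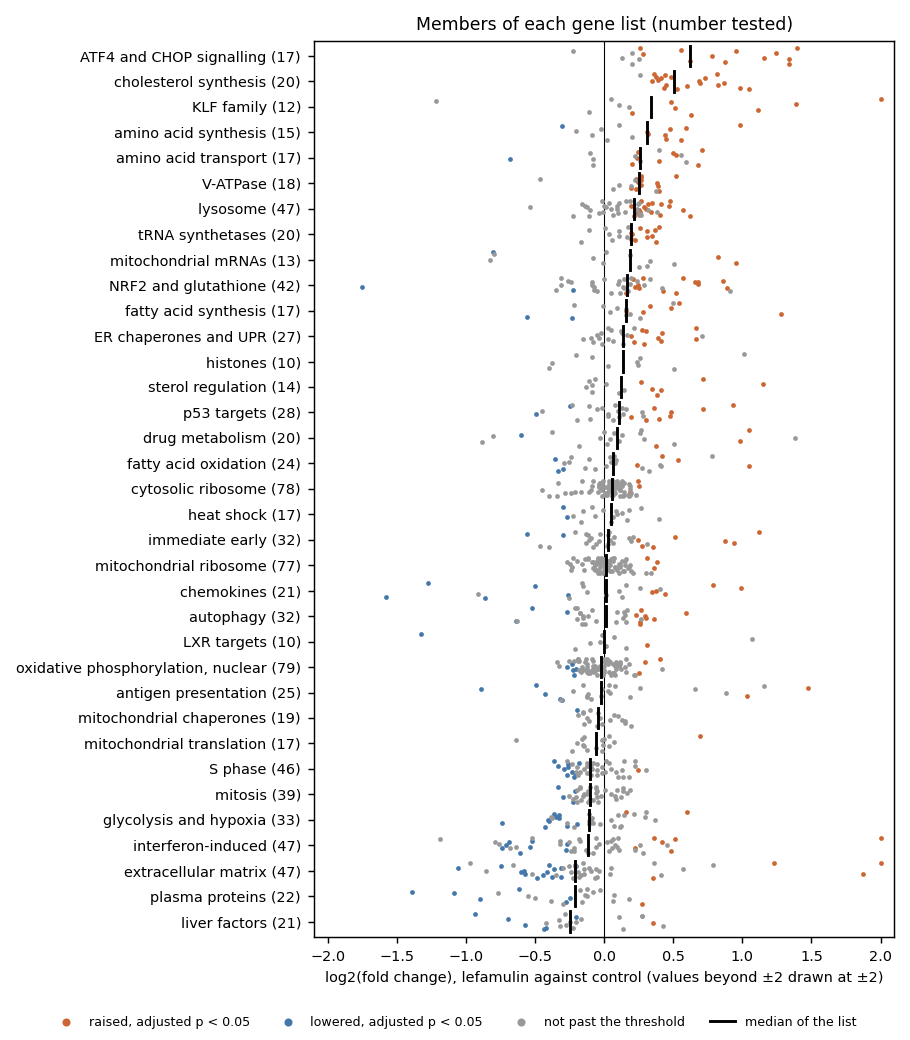
log2(fold change) of lefamulin against control for each tested member of 35 gene lists, ordered by the median of the list (bar), with members past an adjusted p of 0.05 in colour and values beyond 2 drawn at the edge. ATF4 and CHOP signalling and cholesterol synthesis lie at the top with medians of 0.618 and 0.507, liver factors at the bottom with -0.248, and the ribosomal and oxidative phosphorylation lists cluster around 0.

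Lefamulin and tiamulin share the pleuromutilin core and differ in the side chain attached to it. They were given at the same mass concentration and time, and the difference between them was tested directly in the same fit. At an adjusted p below 0.05, 710 of the 14510 genes (4.89%) differed between the drugs, and 34 of the 219 lefamulin DEGs did. The DEGs were themselves chosen on the lefamulin libraries, so this count is a description of them. Of these 34 genes 19 were raised by lefamulin to a level above that under tiamulin, 8 were raised to a level below it, 6 were lowered further than under tiamulin and 1, Abca1, was lowered less. Without lefamulin replicate 2 the number of DEGs that differed between the drugs was 21 instead of 34.

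Rhob was at 101, 112 and 98.01 CPM under tiamulin, between its levels in the controls and under lefamulin (log2 difference, lefamulin minus tiamulin, 1.11 ± 0.06; edgeR adjusted p = 5.07e-07). Klf2 was at 5.84, 7.68 and 5.18 CPM under tiamulin (2.08 ± 0.15; edgeR adjusted p = 6.74e-06), also between. Arf2, an ARF family GTPase of vesicle traffic, had 33.1, 36.1 and 32.8 CPM in the controls, 71.6, 77.1 and 76.9 CPM under lefamulin and 33.6, 33.9 and 30.8 CPM under tiamulin (1.20 ± 0.07; edgeR adjusted p = 1.14e-06). For Arf2 the tiamulin libraries sat at the level of the controls. The ribosomal RNA mt-Rnr2 was at 679.8, 507 and 723 CPM under tiamulin (-0.84 ± 0.10; edgeR adjusted p = 7.78e-04). Ptpn14 was higher under tiamulin, at 49.7, 49.5 and 51.3 CPM (-0.32 ± 0.08), as were Cth, at 79.3, 78.04 and 78.4 CPM (-0.39 ± 0.07), and Arhgef2, at 32.5, 42.9 and 33.4 CPM (-0.87 ± 0.14). For cholesterol synthesis the drugs differed at 1 of 20 enzymes, Hsd17b7 (0.54 ± 0.07; edgeR adjusted p = 0.00104), a share near the 4.89% of all genes. Mvd, for example, had 40.1, 53.7 and 42.4 CPM under tiamulin and a difference of -0.08 ± 0.10 between the drugs, which did not pass (edgeR adjusted p = 0.7). For Ddit3 the difference was 0.19 ± 0.07 (edgeR adjusted p = 0.118). A difference that did not pass is not shown to be absent.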

How the data were processed

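RNA from 3 control, 3 lefamulin and 3 tiamulin samples of Hepa1-6 cells was extracted with TRIzol and sequenced. The authors deposited a table of read counts per gene and a table of FPKM values per gene, 1 column per sample. The submitters' processing notes name CASAVA 1.8, fastp, HISAT2 2.0.5, featureCounts 1.5.0-p3, DESeq2 1.20.0 and the build mm10. Strand settings and library preparation are not given in the sources used here, so overlapping genes, antisense genes and near-identical copies can share reads.

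From the deposited counts, genes kept by filterByExpr were fitted over all 9 libraries with edgeR 4.0.16 (TMM scaling, robust quasi-likelihood fit, R 4.3.3), and the contrasts lefamulin minus control and lefamulin minus tiamulin were tested with Benjamini-Hochberg adjustment over all genes tested. Totals per library limit the precision of scarce genes. The fit was tested on simulated data. Alternatives were DESeq2 1.42.0 and its size factors, other filters, limma 3.58.1 on log2(FPKM + 1) and log2(FPKM + 0.1) of the deposited FPKM values (genes at 1 FPKM or more in 3 libraries), glmTreat, both groups alone, offsets for GC content and length, a block for the replicate number, and each library left out.

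The text names the 14 raised and 14 lowered DEGs with the largest change among those with a mean of at least 2 CPM, groups that did not overlap and no model name, the 10 smallest p-values, and in each gene list up to 4 members with the smallest p-values plus members that define a role. The genes compared, the lists and the tests were chosen with earlier results of these data known. Promoters came from a RefSeq table (GRCm38.p6). Some listed genes count in the list totals but are not reported here by name.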

Additional observations from a re-analysis of the deposited data

How the results depend on the processing

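Among the 28 genes with the largest changes and the 10 with the smallest p-values, 611 of 613 values refitted against no change kept their direction and their side of the threshold and none reversed; the exceptions were both ccdc198. The number of DEGs (219, of which 142 raised and 77 lowered) moved with the filter and the method. It was 138 (87 and 51) with at least 10 counts in every library, and 17 (15 and 2) when glmTreat tested against a log2(fold change) of 1. By limma it was 53 (32 and 21) on log2(FPKM + 1) and 105 (66 and 39) on log2(FPKM + 0.1). Test, filter and scale differed at once in the limma fits, so their parts cannot be told apart. Calls at an adjusted p below 0.05 (1029 raised, 871 lowered) were 1748 and 1762 with both groups alone and 1651 and 1804 with GC and length offsets, and 1643 were lowered with those offsets and the replicate block. Same-numbered control and lefamulin samples did not deviate together (correlations of -0.0406, 0.00501 and 0.0279 over 10353 genes). Pairs with different numbers lay between -0.084 and 0.0784. Since each group holds 3 libraries, these values cannot show whether same-numbered samples shared a batch. With the replicate block alone, 5 amino acid transporters and 11 lysosomal genes were raised, and 3 oxidative phosphorylation genes and 4 S phase genes were lowered.

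Lowered oxidative phosphorylation genes numbered 12 with both groups alone and 16 with the offsets, with or without the block; lowered liver factors numbered 10 in these 3 fits; lowered plasma protein genes were 11 with the offsets and 10 with offsets and block; lowered S phase genes were 16 with the offsets; and 3 chemokines were lowered on either FPKM scale. Leaving out 1 library gave 48 to 109 lowered DEGs, 554 to 1823 raised and 425 to 1885 lowered calls, and 21 to 39 DEGs that differed between the drugs. The lists ranged from 5 to 10 raised amino acid transporters, 3 to 13 endoplasmic reticulum, 8 to 26 lysosomal, 6 to 15 V-ATPase, 4 to 9 autophagy, 4 to 11 p53, 3 to 7 interferon and 8 to 19 NRF2 genes, and from 0 to 13 lowered oxidative phosphorylation, 2 to 16 S phase, 3 to 6 antigen presentation, 3 to 11 plasma protein and 4 to 11 liver factor genes. The lowest counts came from fits without a control or lefamulin library, and the highest from the fit without tiamulin replicate 2. Counts of raised cholesterol synthesis, ATF4 signalling, amino acid synthesis, tRNA synthetase and Krüppel-like factor genes and of lowered glycolysis and matrix genes stayed within 1.5 times, while smaller counts in the other direction moved more. The cause of the shifts in all these counts was not tested.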

Other observations

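Several genes of Wnt signalling were lowered. A list of ligands, receptors, feedback genes and targets was drawn up after Wnt6 and Wnt5a had been seen among the DEGs, so it has no test and its count is a description: of 32 tested members 15 were lowered and 1 raised, beside 6.00% and 7.09% of all genes, with a median log2(fold change) of -0.206, and leaving out 1 library or changing a setting gave 10 to 17 lowered. The ligand Wnt5a had 68.8, 75.8 and 72.8 CPM in the controls and 35.8, 36.8 and 34.9 CPM under lefamulin (log2(fold change) -1.02 ± 0.07), and the groups were apart. The feedback genes Nkd1, with 57.4, 50.1 and 58.98 CPM and 24.7, 25.97 and 23.2 CPM (-1.17 ± 0.12), and Axin2 (-0.37 ± 0.08), the R-spondin receptor Lgr5, with 35.9, 32.9 and 37.9 CPM and 17.1, 17.95 and 17.8 CPM (-1.01 ± 0.09), and the receptors Fzd10 (-0.69 ± 0.10) and Fzd8 (-0.53 ± 0.14) were lowered. Lgr6 was the raised member (0.79 ± 0.19), though not without control replicate 3 or lefamulin replicate 3, and the call of Fzd8 was lost in 7 of 19 alternative fits. Ctnnb1, which encodes beta-catenin, showed 0.04 ± 0.05 (edgeR adjusted p = 0.672) and glutamine synthetase (Glul), a target in liver, -0.07 ± 0.05 (edgeR adjusted p = 0.392).

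Small GTPases related to Rhob and their regulators were listed after Rhob and Arhgef2 had been seen. This list therefore has no test and its count is a description. Of 21 tested members 7 were raised (33.3%, beside 7.09% of all genes) and 1 lowered (4.76%), a share near the 6.00% of all genes. The widely expressed Rhoa went from 224, 249 and 243 CPM to 309, 307 and 300.4 CPM (log2(fold change) 0.36 ± 0.06) and Rhoc from 145, 144 and 147 CPM to 201, 194 and 185 CPM (0.41 ± 0.06), while Rac1 showed -0.17 ± 0.05, a call lost in 8 of 19 alternative fits, among them every fit without a control or lefamulin library. All 25 tested genes of the mitochondrial genome, tRNAs included, were likewise listed after their values were seen: 3 were raised, or 6 without tiamulin replicate 2 and 2 without lefamulin replicate 1, and 7 were lowered, beside 7.09% and 6.00% of all genes, and those lowered included the leucine tRNA mt-Tl1 (-0.99 ± 0.16), while the proline tRNA mt-Tp was raised (0.68 ± 0.12).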
